A study of Mus musculus with 6 samples.

Results

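The genes encoded on the mitochondrial chromosome were examined in RNA sequencing libraries of bulge hair follicle stem cells, and are all genes whose mouse symbol starts with mt-. The annotation holds 37 such genes, of which 35 had a row among the 43274 genes of the deposited table: 13 protein-coding genes and 22 transfer RNA (tRNA) genes. The ribosomal RNA genes mt-Rnr1 and mt-Rnr2 were not analysed here, and the study removed reads that matched ribosomal RNA before alignment. Cells bearing CD34 and abundant α6 integrin had been sorted from mouse epidermis at postnatal day 21. Control mice carried 1 floxed allele of Ilk, the gene of integrin-linked kinase, and the K5-Cre transgene (ILK fl/+ K5-Cre, labelled ILK +/-), and ILK-K5 mice had both alleles floxed with the same transgene (ILK fl/fl K5-Cre, labelled ILK -/-). The keratin 5 promoter drives Cre in keratinocytes, so other cells of the skin keep Ilk in both genotypes. There were 3 libraries of each genotype, and whether each came from 1 animal is not stated, so that the p-values below measure the spread between these libraries.

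The mitochondrial chromosome carries core subunits of the respiratory chain: those of complex I, which oxidizes NADH, cytochrome b of complex III, the catalytic core of complex IV, which reduces oxygen, and the proton channel of the ATP synthase, complex V. All other subunits, as well as the enzymes that copy, transcribe and translate the mitochondrial genome, are encoded in the nucleus. Both strands are transcribed as long precursors, in which tRNAs stand between most mRNAs and rRNAs and mark the places where the precursor is cut. Bulge stem cells are the long-lived cells of the hair follicle that fuel the hair cycle, and quiescent stem cells of this kind are known to depend less on respiration than their dividing progeny.

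A pair of features of the sequence bears on how these genes can be counted, and the stretches below show them (GENCODE transcripts, build GRCm38, 5′ to 3′). The first is overlap. Of the 13 mRNAs, 12 lie on the plus strand, and mt-Atp8 shares its last 43 bases with the start of mt-Atp6 (chrM:7903-7993), whereas mt-Nd4l shares 7 bases with mt-Nd4 (chrM:10143-10197). Capitals mark the shared bases, which begin with the start codon of the downstream gene.
mt-Atp8/mt-Atp6: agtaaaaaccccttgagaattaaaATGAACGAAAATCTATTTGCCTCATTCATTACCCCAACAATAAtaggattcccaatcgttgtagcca
mt-Nd4l/mt-Nd4: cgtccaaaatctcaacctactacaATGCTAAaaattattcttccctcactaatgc

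The second is copies of mitochondrial sequence in the nuclear genome. A stretch of mt-Co2 (chrM:7457-7556, plus strand), as long as 1 read (100 bases), is shown beside its copies Gm28661 (chr1:24615022-24615121, minus strand) and Gm13341 (chr2:22587431-22587530, minus strand). It is the 100-base stretch with the most differences from Gm13341. Capitals mark the 7 positions at which Gm13341 differs, and Gm28661 has no difference from mt-Co2 in it.
mt-Co2: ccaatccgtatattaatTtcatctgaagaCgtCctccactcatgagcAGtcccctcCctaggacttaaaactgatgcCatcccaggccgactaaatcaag
Gm28661: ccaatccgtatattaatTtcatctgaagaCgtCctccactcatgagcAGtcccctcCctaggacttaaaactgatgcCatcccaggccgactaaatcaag
Gm13341: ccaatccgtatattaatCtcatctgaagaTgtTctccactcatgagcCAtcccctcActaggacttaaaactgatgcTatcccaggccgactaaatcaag

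The libraries held between 8228019 and 11969072 reads on genes. Reads on Ilk were few, 11, 11 and 53 in the control libraries and 13, 40 and 30 in the ILK-K5 libraries, so that the count of this gene did not check the labels. Markers of the sorted cells were present, and Cd34 was the 1 of 10 bulge markers called, lower in ILK-K5 (log2 fold change -1.90, adjusted p = 0.024, limma). Markers of macrophages moved with the genotype: 9 of 9 were called higher in ILK-K5, and their summed normalized counts lay between 102 and 141 in control and between 12559 and 19402 in ILK-K5 libraries. All 4 general leukocyte markers and 2 of 3 Langerhans and dendritic cell markers were called higher as well. Of 3 fibroblast markers tested, 1 was called higher, and of 5 differentiated keratinocyte markers, 1 was called lower. The part of any of these cell types in the mitochondrial values was not tested. The names of the library columns also carry a number, which is one for replicate 1 of both genotypes and another for replicates 2 and 3 of both, and whose meaning the sources used here do not give.

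Mitochondrially encoded genes were among the most abundant transcripts of these cells, and their share of the reads varied more between libraries than between genotypes. They took 23.6%, 27.6% and 11.5% of the reads in control libraries 1, 2 and 3, and 24.2%, 14.4% and 16.9% in ILK-K5 libraries 1, 2 and 3. The control libraries held both the highest and the lowest share, with all ILK-K5 libraries between them. The mean was 20.9% ± 8.39 for control and 18.5% ± 5.12 for ILK-K5 (SD, n = 3 each), a difference of -2.40 percentage points (two-sided exact permutation test, p = 0.8, adjusted p = 0.933 over 7 shares, where 3 against 3 libraries cannot go below 0.1). The 95% Wilson interval of each share was at most 0.0611 percentage points wide and covers counting error only. Without control library 2 the difference was 0.94 points, in the other direction, and among replicates 2 and 3, which share a column number, it was -3.91 points (exact p = 1). The totals behind these shares include the reads on nuclear copies. With the copies left out of the total, the share ran from 12.2% to 31.5% over the libraries. With the copies added to the mitochondrial genes, it ran from 17.1% to 40.0%. In bulk libraries such as these, fewer cells of a type and less RNA per cell cannot be told apart.

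**Figure D1:**
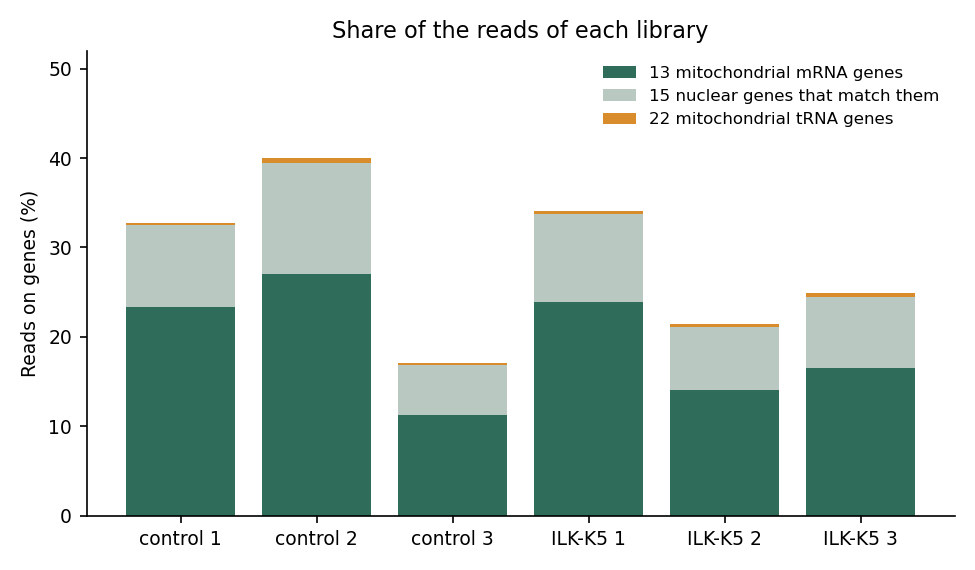
Percent of the reads on genes (y axis) in each of the 6 libraries (x axis), stacked for the 13 mitochondrial mRNA genes, the 15 nuclear genes that match them and the 22 mitochondrial tRNA genes. The mRNA share runs from 11.3% in control 3 to 27.0% in control 2, and the ILK-K5 libraries lie between these values. Whether a read was counted both on a gene and on its copy is not stated, so the stacked parts may not be separate reads.

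Nearly all of these reads lay on the mRNAs. mRNA genes took 23.4%, 27.0% and 11.3% of the reads in control and 23.9%, 14.1% and 16.5% in ILK-K5 libraries (20.6% ± 8.26 against 18.2% ± 5.11, SD, n = 3, exact permutation p = 0.8, adjusted p = 0.933). The tRNA genes took between 0.225% and 0.543% (0.333% ± 0.182 in control against 0.340% ± 0.058 in ILK-K5, SD, n = 3, exact permutation p = 1, adjusted p = 1). By total reads over the 6 libraries, mt-Co1 ranked 1 and mt-Nd5 ranked 2 among all genes, and 8 mitochondrial mRNAs were among the first 13.

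Between the 13 mRNAs, levels were compared per length, as normalized counts per kilobase (kb) of gene. The order of the mean levels over the 6 libraries was mt-Co2, mt-Co1, mt-Atp8, mt-Nd5, mt-Nd1, mt-Atp6, mt-Nd2, mt-Cytb, mt-Nd4, mt-Nd4l, mt-Co3, mt-Nd6 and mt-Nd3, from 360914 down to 25972 per kb. Neighbours in this order overlapped in their range over the libraries. The spread of a single gene over the 6 libraries ran from 2.02 times for mt-Nd6 to 8.34 times for mt-Nd2.

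**Figure D2:**
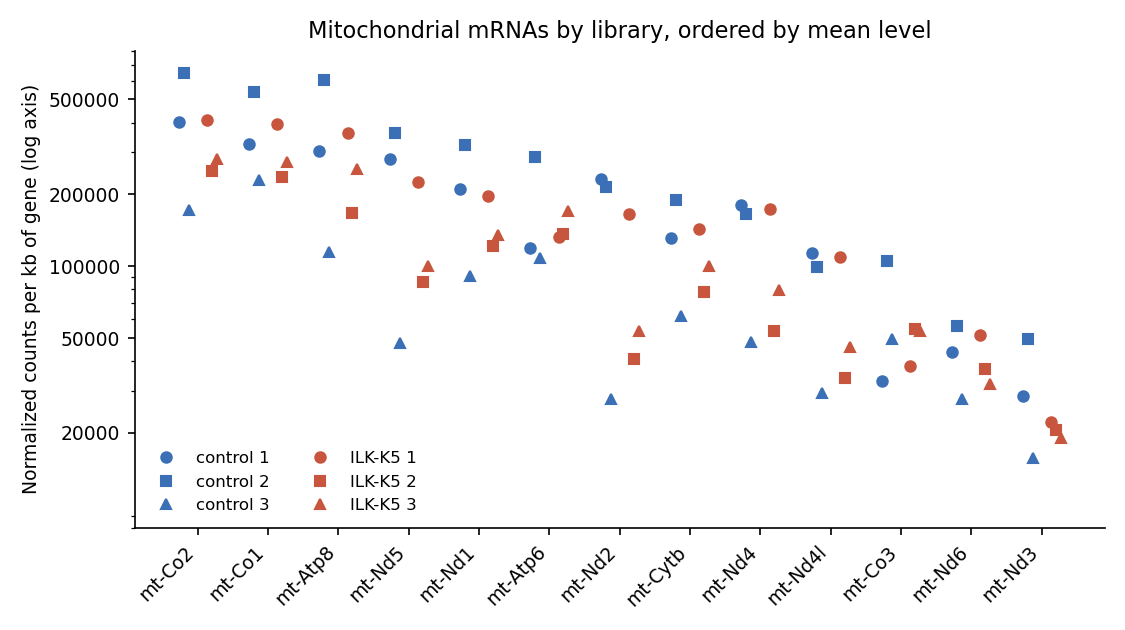
Normalized counts per kb of gene (y axis, log scale) of the 13 mitochondrial mRNAs (x axis, by mean level), with 1 point for each library, blue for control and red for ILK-K5. In every gene the points of the genotypes overlap, and control 2 and control 3 often stand at opposite ends.

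The complex IV genes encode the catalytic subunits of cytochrome c oxidase. mt-Co1 had 323960, 537002 and 229860 normalized counts per kb in the control libraries and 392913, 236509 and 272463 in the ILK-K5 libraries, each in the order of the replicates 1, 2 and 3. mt-Co2 had 402816, 647741 and 172106 in control and 410881, 251596 and 280343 in ILK-K5 libraries. Both genes were highest in control library 2 and lowest in control library 3. mt-Co3, the third subunit of the core, was much lower, with 33158, 105010 and 49477 per kb in control and 38104, 54366 and 53567 in ILK-K5 libraries. Here the lowest values were those of replicate 1 of both genotypes, which share a number in their column names.

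Among the complex I genes were the mRNAs with the widest spread over the libraries, mt-Nd2 (8.34 times) and mt-Nd5 (7.54 times), and the one with the narrowest, mt-Nd6. mt-Nd5, a proton-pumping subunit, had 281952, 360831 and 47868 normalized counts per kb in control and 225032, 86080 and 99838 in ILK-K5 libraries. mt-Nd2, another pumping subunit, had 232102, 214649 and 27836 in control and 164851, 40701 and 53609 in ILK-K5 libraries. In both genes control libraries 1 and 2 and ILK-K5 library 1 were high and the remaining 3 libraries low, so that each genotype had members on both sides. The same division was present in mt-Nd4, a further pumping subunit, with 180124, 166161 and 48069 in control and 173846, 53515 and 79403 in ILK-K5 libraries. It was weaker in mt-Nd1, which sits at the junction with the ubiquinone-reducing arm, with 210148, 321335 and 90945 in control and 196130, 121025 and 135735 in ILK-K5 libraries. mt-Nd3, a small subunit of complex I, had the lowest mean of the 13 and ranged from 15763 to 49641 per kb, and mt-Nd4l ranged from 29461 to 113555. mt-Nd6 is the only mRNA on the minus strand and ranged from 27895 to 56290 per kb. The sources used here do not state that counting used the strand, so reads of mt-Nd6 and of the opposite strand cannot be told apart.

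mt-Cytb, the cytochrome b of complex III, had 130961, 189108 and 61933 normalized counts per kb in control and 143090, 78035 and 99964 in ILK-K5 libraries. In the ATP synthase genes, mt-Atp6 encodes the proton channel subunit and mt-Atp8 a small membrane subunit. mt-Atp6 had 118878, 287889 and 108068 in control and 132517, 136023 and 170940 in ILK-K5 libraries. mt-Atp8 had 304151, 604581 and 115094 in control and 363086, 166808 and 254388 in ILK-K5 libraries. The genotypes overlapped in all 3 genes.

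None of these differences between genotypes was larger than the spread between libraries. Of the 23 mitochondrial genes tested (13 mRNAs and 10 tRNAs whose mean normalized count was 10 or more), 0 were called by limma at an adjusted p of at most 0.05, 0 had an unadjusted p under 0.05, and edgeR and DESeq2 called 0 as well. Over all 16368 genes tested, 3.53% were called (2.93% higher and 0.599% lower in ILK-K5), 12.3% had an unadjusted p under 0.05, and in 17.9% the libraries of the genotypes did not overlap, against 0 of 23 mitochondrial genes. The log2 fold changes of the 13 mRNAs, ILK-K5 minus control, were all below 0, with a median of -0.22 beside 0.01 for all genes tested. They ran from -0.65 (SE 0.89) for mt-Nd2, which was -1.65 without control library 3 and -0.12 without control library 1, to -0.06 (SE 0.39) for mt-Nd6, with adjusted p between 0.801 and 0.980. The 95% intervals, which spanned -2.66 to 1.55 over the 13 genes, do not show that the genotypes were alike. The direction turned with a single library or scaling: without control library 2, 9 of the 13 were above 0 (median 0.11), without control library 3 all were below (median -0.79), and after quantile normalization 9 were above (median 0.13).

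**Figure D3:**
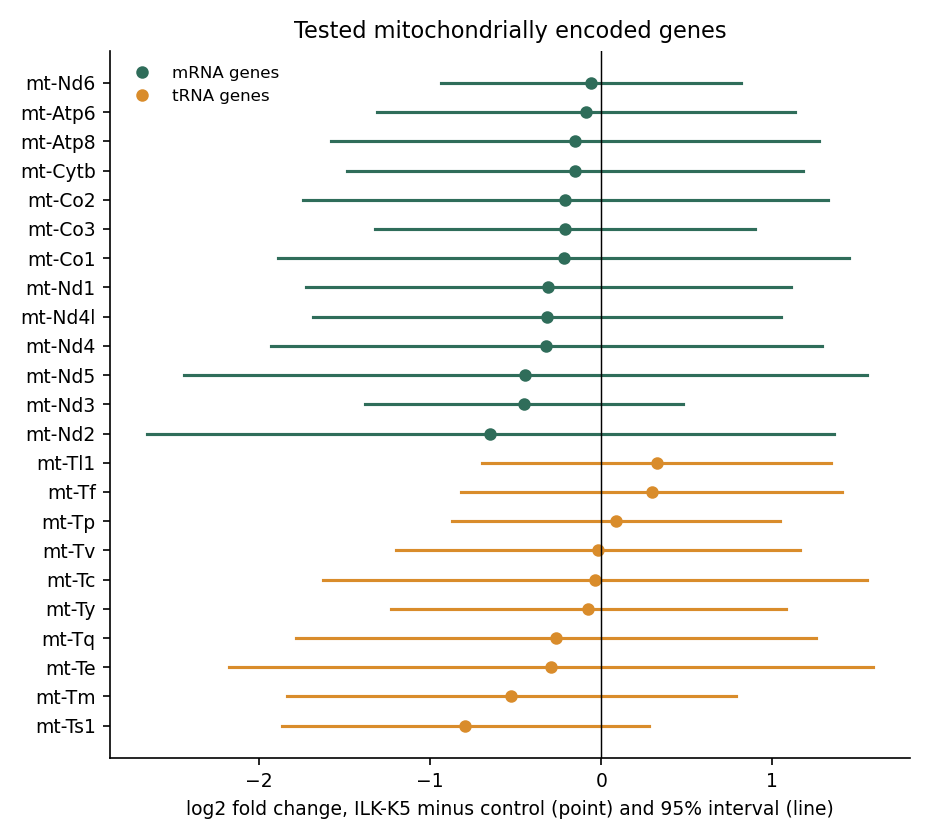
Log2 fold change of ILK-K5 against control (x axis; points) with its 95% interval (lines) for the 23 mitochondrial genes tested (y axis), green for mRNAs and orange for tRNAs. Every interval includes 0.

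The residual standard deviation in the fit, which measures the spread of log2 values within a genotype, had a median of 0.70 over the 13 mRNAs, from 0.44 for mt-Nd6 to 1.44 for mt-Nd2. The median over all genes tested was 0.55, and over 146 other abundant genes, whose mean normalized count was 5000 or more, it was 0.51. The mRNA with fewest reads, mt-Nd3, had 6794 to 11361 reads in each library.

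The make-up of the mitochondrial mRNA reads moved with their total. Complex I genes made up 53.7%, 44.1% and 30.5% of the mitochondrial mRNA reads in control and 46.3%, 34.8% and 35.4% in ILK-K5 libraries, and the 3 libraries with the highest mitochondrial share of reads were also the 3 with the highest part from complex I. The summed part from complex IV ran the other way, with 33.9%, 40.0% and 52.3% in control and 39.5%, 47.5% and 45.1% in ILK-K5 libraries. These sums did not hold for every gene of a complex. Of the complex I genes, only mt-Nd2 (2.96% to 10.2%) and mt-Nd5 (8.93% to 21.7%) were highest in those 3 libraries. Of the complex IV genes, mt-Co1 (21.2% to 36.3%) and mt-Co3 (1.10% to 3.97%) were lowest in them, while mt-Co2 kept between 11.6% and 14.1%. mt-Cytb kept between 6.33% and 7.88%, and mt-Nd1 between 8.08% and 9.48%. The part from complex I did not separate the genotypes (42.8% ± 11.7 against 38.9% ± 6.48, SD, n = 3, exact permutation p = 0.7, adjusted p = 0.933). Shares of 1 total are not independent of each other.

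**Figure D4:**
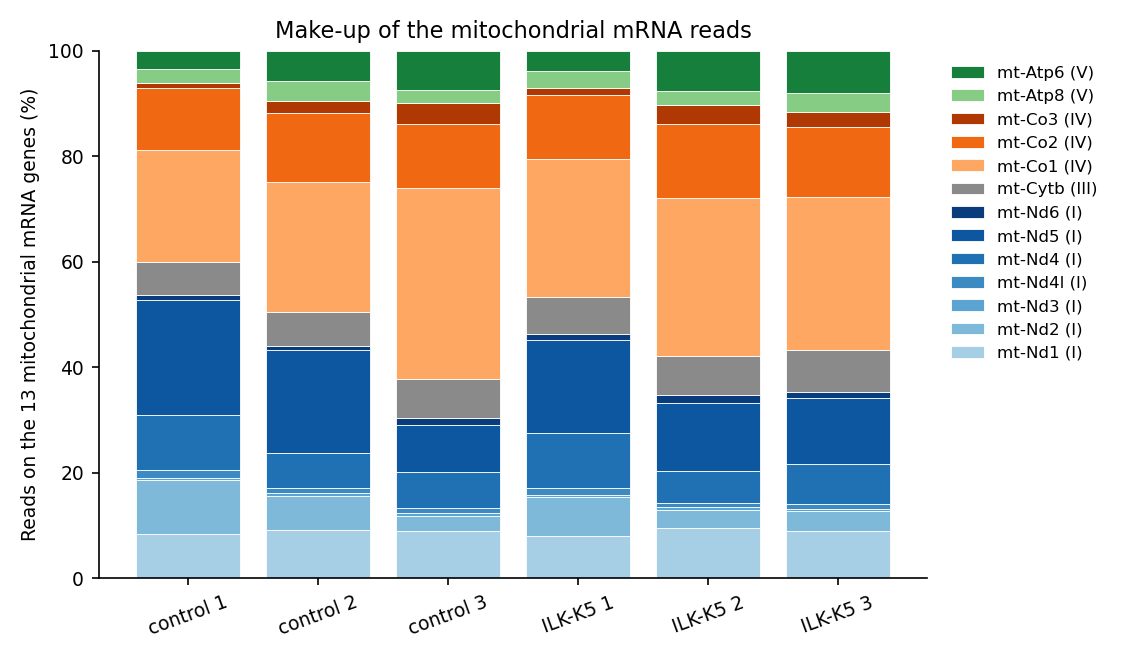
Percent of the reads on the 13 mitochondrial mRNA genes (y axis) that each gene took in each library (x axis), coloured by respiratory complex, with complex I in blue, III in grey, IV in orange and V in green. Complex I takes from 30.5% (control 3) to 53.7% (control 1).

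Ratios between genes of the same library showed which counts varied together. Per kb, mt-Nd4l stood at 0.630, 0.596 and 0.613 of mt-Nd4 in control and 0.631, 0.637 and 0.579 in ILK-K5 libraries, so that these overlapping genes, which are known to stay together on 1 mRNA, kept nearly the same ratio. mt-Atp8 and mt-Atp6 also share 1 mRNA, and their ratio was 2.56, 2.10 and 1.07 in control and 2.74, 1.23 and 1.49 in ILK-K5 libraries. How reads over their 43 shared bases, or reads that also match Gm10925, the nuclear copy of mt-Atp6, were counted is not stated. The ratio therefore does not show that the RNA of these genes varied apart. Reads that also match Gm10222 or Gm28439, nuclear copies of mt-Nd4l and of part of mt-Nd4, bring the same limit. The steady ratio of mt-Nd4l to mt-Nd4 therefore does not show that the RNA of these genes varied together. mt-Nd2 relative to mt-Co1 was the least steady of the pairs compared, with 0.716, 0.40 and 0.121 in control and 0.420, 0.172 and 0.197 in ILK-K5 libraries. mt-Nd6 relative to mt-Nd5, which it overlaps by 14 bases on the opposite strand, ranged from 0.156 to 0.583.

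Some of these values followed the number in the column names. mt-Co3 relative to mt-Co1 was 0.102 and 0.097 in control and ILK-K5 replicate 1 and between 0.196 and 0.230 in replicates 2 and 3, and mt-Nd4 relative to mt-Co1 was 0.556 and 0.442 against 0.209 to 0.309. In a limma fit with the number as a term beside the genotype, the mean log2 level was higher in replicate 1 than in replicates 2 and 3 by 1.70 for mt-Nd2, 1.27 for mt-Nd4l and 1.21 for mt-Nd4, and lower for mt-Co3 (-0.81). In the raised genes control library 2 lay close to the replicate 1 libraries, so these means do not describe every library. For mt-Nd2 it had 222805 normalized counts, against 240921 and 171116 in replicate 1 of control and ILK-K5. For mt-Nd4 it had 228970, against 248212 and 239560. None of the 23 mitochondrial genes was called for the number, the lowest adjusted p being 0.098, whereas 8.83% of all genes were. With this term, 0 mitochondrial genes were called for the genotype. Across the 13 mRNAs, the correlation of the difference by number with GC content was 0.01 (Pearson) and -0.02 (Spearman), which describes genes of the same libraries. The part of base composition in this difference was not tested.

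The tRNA reads came from very few genes. The 3 tRNAs with most reads are shown with mt-Ts2, which had none, and capitals mark the anticodon. They carry valine (mt-Tv, chrM:1025-1093, plus strand), phenylalanine (mt-Tf, chrM:1-68, plus strand) and serine (mt-Ts1, chrM:6870-6938, minus strand, and mt-Ts2, chrM:11613-11671, plus strand).
mt-Tv: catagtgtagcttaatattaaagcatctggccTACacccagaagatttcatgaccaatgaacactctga
mt-Tf: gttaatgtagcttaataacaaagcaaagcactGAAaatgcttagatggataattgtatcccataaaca
mt-Ts1: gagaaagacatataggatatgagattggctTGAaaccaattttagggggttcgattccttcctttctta
mt-Ts2: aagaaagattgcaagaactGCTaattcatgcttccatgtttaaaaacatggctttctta

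mt-Tv had 17430, 36398 and 20373 reads in control and 21861, 24339 and 29073 in ILK-K5 libraries, which was 73.7% to 81.5% of the tRNA reads of a library. mt-Tf had 1833, 5048 and 4505 reads in control and 2946, 5495 and 5913 in ILK-K5 libraries. mt-Tv lies between mt-Rnr1 and mt-Rnr2 with no base between them, and mt-Tf is separated from mt-Rnr1 by 1 base. mt-Ts1, whose last 3 bases lie opposite the end of mt-Co1, had 3784, 2798 and 2252 reads in control and 2680, 2053 and 1031 in ILK-K5 libraries. All 3 are shorter than a read of 100 bases, so that a read that reaches one can also cover its neighbours.

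Together these 3 tRNAs took 97.5% to 99.1% of the tRNA reads. Of the 22 tRNAs, 18 had fewer than 100 reads in every library. mt-Ts2 had 0 reads in all 6 libraries. By counting error alone this allows up to 3 reads in each, or at most 3.65e-05% of the reads of a library. The gene is 59 bases long, adjoins mt-Th and overlaps mt-Tl2 by 1 base. How reads that also cover a neighbour were counted is not stated, so the count sets no limit on the RNA of mt-Ts2. Of all reads counted on tRNA genes, 7.57% were on mt-Ts1, the tRNA for the other serine codons, and none on mt-Ts2. As for mt-Nd6, reads of mt-Ts1 and of the opposite strand, which holds mt-Co1, cannot be told apart. These counts were not taken as levels of the mature tRNAs. Of the 10 tRNAs tested, 0 were called, and the log2 fold changes had a median of -0.06, from -0.80 (SE 0.48, adjusted p = 0.626, limma) for mt-Ts1 to 0.32 for mt-Tl1, a leucine tRNA. The value of mt-Tv was -0.02. The other tested tRNAs were mt-Tf, mt-Tq, mt-Tm, mt-Tc, mt-Ty, mt-Te and mt-Tp, with log2 fold changes from -0.53 (mt-Tm) to 0.29 (mt-Tf). The 12 tRNAs that did not reach the mean of 10 were mt-Ts2, mt-Ti with 2 to 26 reads, and mt-Tw, mt-Ta, mt-Tn, mt-Td, mt-Tk, mt-Tg, mt-Tr, mt-Th, mt-Tl2 and mt-Tt with at most 10 reads in any library.

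Reads were also counted on nuclear copies. In a comparison of the transcripts of all other genes with those of the mitochondrial genes, 15 nuclear genes, all annotated as pseudogenes, matched 11 of the 13 mRNAs over at least 100 bases with at least 90% identity. None of the annotated transcripts matched mt-Nd1 or mt-Atp8 in this way. Nuclear sequence between annotated genes was not compared, so a copy of these 2 genes there would have been missed. Of these, 7 lie side by side on chromosome 1 (chr1:24611535-24616197), 3 on chromosome 2 and 3 on chromosome 4. Their counts made up 9.16%, 12.4% and 5.59% of the reads in control and 9.86%, 7.08% and 8.01% in ILK-K5 libraries, in the same order of libraries as the mitochondrial genes. None of the 15 was called between genotypes by limma (adjusted p between 0.8 and 0.987), which is the same comparison of libraries as for the genes they match.

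For 4 of these copies the read count was nearly that of the mitochondrial gene itself in every library. Gm28661 had 283629, 292994 and 162988 reads in control and 248048, 224202 and 197852 in ILK-K5 libraries, against 285576, 291375 and 162238, and 246858, 223131 and 196857, for mt-Co2. The ratio of the copy to the gene thus lay between 0.993 and 1.006. It lay between 1.001 and 1.005 for Gm28437 and mt-Co3, between 0.997 and 1.013 for Gm10222 and mt-Nd4l, and between 1.009 and 1.026 for Gm28438 and mt-Nd3. Such a pair of counts follows 1 signal and holds no second measurement. How reads that align to more than 1 place were counted is not given in the sources used here, so that the split of reads between these genes and their copies is uncertain.

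The part of each mRNA that a nuclear gene holds without a difference was read from its sequence. Of all 100-base windows of the gene, 99.9% of mt-Co3, 99.49% of mt-Co2, 99.48% of mt-Atp6, 98.5% of mt-Nd4l and 97.6% of mt-Nd3 also occur without a difference in a nuclear gene of the table. The value was 60.8% for mt-Nd4, 30.8% for mt-Co1 and 3.19% for mt-Nd2. The libraries were sequenced in pairs of reads, and these windows take no account of where the other read of a pair lies. No such window was found for mt-Nd1, mt-Nd5, mt-Nd6, mt-Cytb or mt-Atp8. The 5 genes without such a window had log2 fold changes between genotypes of -0.31, -0.44, -0.06, -0.15 and -0.15 in that order. Of these genes, 0 were called. Absence of a window does not show that a gene was unaffected, since copies with differences also had reads. Gm11407, at 92.3% identity to part of mt-Nd5, had 0.043 to 0.075 times the reads of mt-Nd5. The windows were also sought only in annotated nuclear transcripts, and sequence between those genes was not compared.

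**Figure D5:**
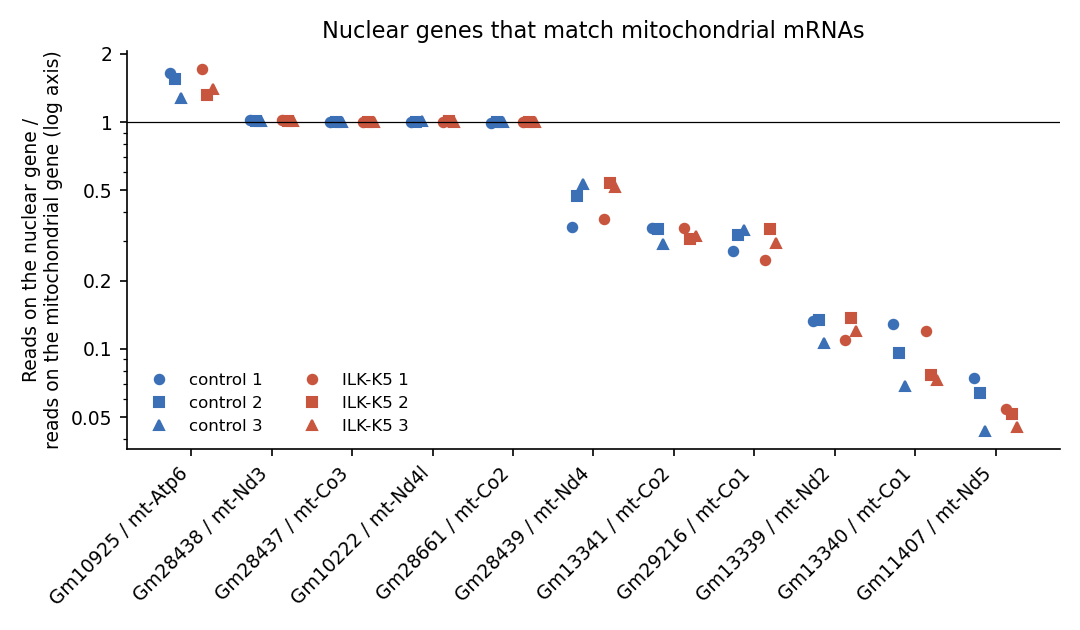
Reads on a nuclear gene divided by the reads on the mitochondrial gene it matches (y axis, log scale) for 11 pairs (x axis), with 1 point for each library, blue for control and red for ILK-K5, and a line at 1. In 4 pairs all 6 libraries lie between 0.993 and 1.026, and Gm10925 / mt-Atp6 lies above it at 1.28 to 1.72.

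Other copies match only a stretch of a gene. Gm28439 matches the first 876 bases of mt-Nd4 without a difference, and its reads came to 0.345, 0.470 and 0.531 of those on mt-Nd4 in control and 0.373, 0.538 and 0.516 in ILK-K5 libraries. Gm29216 matches mt-Co1 from base 1063 to its end, base 1545, and stood at 0.269, 0.318 and 0.335 of mt-Co1 in control and 0.246, 0.339 and 0.295 in ILK-K5 libraries. In both pairs the replicate 1 libraries of both genotypes had the lowest values. Gm10925, a copy of mt-Atp6, had 1.64, 1.54 and 1.28 times the reads of mt-Atp6 in control and 1.72, 1.31 and 1.41 times in ILK-K5 libraries. The libraries stood in the same order as for the ratio of mt-Atp8 to mt-Atp6. The ratio of the remaining copies to their genes did not follow identity alone. Gm13341 matches mt-Co2 at 95.9% identity and stood at 0.290 to 0.343 of it, above Gm13340, which matches mt-Co1 at 97.6% (0.068 to 0.128), and Gm13339, which matches part of mt-Nd2 at 96.7% (0.107 to 0.137). Gm11407 and Gm4076 match parts of mt-Nd5 at 92.3% and 95.2% and stood at 0.043 to 0.075 and at most 0.0024 of it. Gm11512, Gm11410 and Gm11408, which match mt-Co1, mt-Cytb and mt-Nd6, had at most 282 reads in any library.

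The nuclear genes of the respiratory chain did not differ between genotypes beyond the spread either. Of 78 nuclear subunits of complexes I to V, 75 were tested and 0 were called, with 0 at an unadjusted p under 0.05 in limma and 1 each in edgeR and DESeq2, which called 0. Over all genes, limma called 3.53% and gave 12.3% an unadjusted p under 0.05. Their log2 fold changes had a median of 0.01. By complex, 36 genes of complex I, 4 of complex II, 9 of complex III, 11 of complex IV and 15 of complex V were tested, and the medians were -0.03, 0.16, 0.29, 0.26 and -0.02. Summed over the 78 genes, the normalized counts stayed between 45921 and 58764, a range of 1.28 times, where the 13 mitochondrial mRNAs spanned 977760 to 3384151, or 3.46 times. The sums by complex varied more: 8355 to 14480 for complex I, 2278 to 3213 for II, 2155 to 5107 for III, 4430 to 8755 for IV and 21297 to 30860 for V. Complex V held the largest part of the total, which therefore does not show that the nuclear genes were each steady.

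The machinery that makes mitochondrial RNA and protein was examined in further lists, chosen with earlier results of these data known. Of 17 genes for replication and transcription of the mitochondrial genome, 24 for its RNA processing and decay, 17 mitochondrial aminoacyl-tRNA synthetases and 56 mitochondrial ribosomal proteins tested, 0 were called by limma, edgeR or DESeq2 and 0 had an unadjusted p under 0.05 in limma, beside 3.53% called by limma and 12.3% with such a p over all genes. The medians of their log2 fold changes were 0.00, 0.20, -0.01 and 0.05. Tfam, which packages the mitochondrial genome and starts its transcription, had 75.3, 187 and 181 normalized counts in control and 141, 207 and 227 in ILK-K5 libraries (log2 fold change 0.46, SE 0.42). Polrmt, the mitochondrial RNA polymerase, had 66.6, 53.2 and 39.9 in control and 77.4, 54.8 and 49.7 in ILK-K5 libraries. Lrpprc, which stabilizes mitochondrial mRNAs, had 1421, 712 and 387 in control and 1203, 488 and 520 in ILK-K5 libraries, so that replicate 1 was the highest of each genotype. The genotypes overlapped in all 3 genes. Of 17 genes for mitochondrial mass and import, 0 were called or had an unadjusted p under 0.05 in limma (median 0.30), beside the same 3.53% and 12.3%, and edgeR and DESeq2 called 0.

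Among 7 nuclear regulators of mitochondrial genes, Ppargc1a stood apart. It encodes PGC-1α, a coactivator that raises the expression of nuclear genes for mitochondria and respiration. It had 325, 532 and 217 normalized counts in control and 132, 41.6 and 95.5 in ILK-K5 libraries. Every ILK-K5 library lay below every control library, as was the case in either direction for 17.9% of all genes tested. The log2 fold change was -2.04 (SE 0.49, 95% interval -3.15 to -0.93), and the gene narrowly missed the threshold with an adjusted p = 0.061 in limma. It passed with DESeq2 (adjusted p = 0.00296) and did not with edgeR (adjusted p = 0.072). Without control library 2 or ILK-K5 library 2 the adjusted p was 0.257 and 0.209, and without control library 3 it was 0.046. The macrophage markers divide the libraries in the same way, and their part in this value was not tested. The other 6 regulators, Ppargc1b, Pprc1, Nrf1, Gabpa, Gabpb1 and Esrra, had log2 fold changes between -0.22 and 0.96, and their genotypes overlapped.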

How the data were processed

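RNA of FACS-sorted cells was amplified to cDNA (Ovation RNA-Seq System V2) and made into libraries with a transposase kit (Nextera XT). Sequencing gave paired reads of 100 bases. The authors removed adapters, filtered out reads on ribosomal RNA and aligned the rest to GRCm38. TopHat2 2.0.14, Bowtie2 2.2.4 and DESeq2 1.6.3 are named in the submitters' processing notes. The deposited values are normalized counts, used here as a signal: the reads on a gene over the size factor of its library. Dividing by the smallest step gave whole reads in 100% of the values (tolerance 0.01). Whether such a unit is a single read or a pair was not determined, and it is called a read throughout. The deposited FPKM values are the same counts per length and served as an alternative. Deposited tables of the authors' own comparison, with fold changes and p-values, were not used.

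Symbols were matched by Ensembl identifier to GENCODE M21 (GRCm38), which gave 97.3% of 43274 rows a symbol. limma 3.58.1 was fitted to log2(normalized count + 1) of genes with a mean of at least 10, with genotype as the term, a trended prior and Benjamini-Hochberg adjustment over 16368 genes. A fold change on this scale understates the change of low genes. edgeR 4.0.16 and DESeq2 1.42.0 on the recovered reads were alternatives, beside other pseudocounts, filters, scalings and left-out libraries. Scripts were tested on simulated data. Shares were tested by exact permutation, and nuclear copies were found with blastn 2.17.0. The text names every mitochondrial gene, its nuclear copies (mean normalized count of 10 or more), up to 4 called genes in each direction for each nuclear list, and always Tfam, Polrmt, Lrpprc and Ppargc1a. From the marker lists Cd34 is named, and the called macrophage, leukocyte and other marker genes are given as counts. The other regulators in the list of Ppargc1a, and Ilk, Lars2 and Gm42418, are named outside this rule. The members and lists were chosen with earlier results of these data known.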

Additional observations from a re-analysis of the deposited data

How the results depend on the processing

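In each of 20 alternatives to the fit, 0 mitochondrial and 0 nuclear respiratory chain genes were called. The median log2 fold change of the mitochondrial mRNAs stayed between -0.79 and 0.13. The difference in the share of reads ran from -7.11 to 0.94 percentage points when single libraries were left out. Quantile normalization turned the log2 fold change of mt-Nd1 to 0.051, mt-Co1 to 0.17, mt-Co2 to 0.13, mt-Atp8 to 0.22, mt-Atp6 to 0.33, mt-Co3 to 0.35, mt-Nd4l to 0.020, mt-Nd6 to 0.46, mt-Cytb to 0.17 and mt-Tv to 0.43. Scaling by the reads outside the mitochondrial chromosome moved the median of all genes to 0.15 and turned mt-Atp6 to 0.055, mt-Nd6 to 0.084, mt-Tv to 0.12 and Lrpprc to 0.024. With the nuclear copies also left out of that scaling, chosen after seeing the data, the values were 0.029, 0.058 and 0.098 for mt-Atp6, mt-Nd6 and mt-Tv. The cause of these turns was not tested.

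Leaving out single libraries gave log2 fold changes from -1.65 to -0.12 for mt-Nd2, -0.87 to -0.043 for mt-Nd3, -1.22 to -0.42 for mt-Ts1, 0.033 to 0.68 for Tfam, -0.82 to 0.10 for mt-Nd1, -0.51 to 0.11 for mt-Co1, -0.73 to 0.22 for mt-Co2, -0.58 to 0.25 for mt-Co3, -0.35 to 0.36 for mt-Atp6, -0.79 to 0.41 for mt-Atp8, -0.94 to 0.058 for mt-Nd4, -0.93 to 0.042 for mt-Nd4l, -1.36 to 0.10 for mt-Nd5, -0.34 to 0.17 for mt-Nd6, -0.60 to 0.20 for mt-Cytb, -0.37 to 0.59 for mt-Tv, -0.58 to 0.36 for Lrpprc and -0.00037 to 0.36 for Polrmt. Same-numbered libraries deviated together with correlations of 0.53, 0.02 and 0.31, so that the replicate numbers were not taken as pairs. A replicate block left the count of mitochondrial genes called at 0 and the median of their mRNAs at -0.22, and raised the calls over all genes from 577 to 1117. Not every library correlated best with its own number. Of the genes named, Ppargc1a passed the threshold with the replicate block (adjusted p = 0.018, limma), with a term for the number in the column names (0.021) and with no filter on low counts (0.040).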

Other observations

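Lars2, the mitochondrial leucyl-tRNA synthetase, took nearly all counts of its list. It had 78409, 169345 and 451914 reads in control and 37861, 261309 and 126397 in ILK-K5 libraries. Gm42418 on chromosome 17, a gene outside the lists, stood in the same order of libraries, with 25425, 70464 and 434196 reads in control and 14048, 124412 and 66328 in ILK-K5 libraries. Both were highest in control library 3, the library with the lowest mitochondrial share of reads, and lowest in ILK-K5 library 1. Neither was called between genotypes (log2 fold change -0.86 and -1.02, adjusted p = 0.8 and 0.812, limma). Both genes were singled out after their values were seen.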
